A study of Mus musculus with 4 samples.

Results

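The genes described here serve tRNA charging and the synthesis and uptake of amino acids in mouse group 3 innate lymphoid cells (ILC3s) that were kept in medium or stimulated with TL1A. They are 46 listed genes, of which 45 were found among the 24343 genes of the deposited count table (unmatched transcript rows counted as genes). The list joins 20 cytosolic aminoacyl-tRNA synthetase genes, 7 genes of serine, glycine and one-carbon metabolism, 6 genes of asparagine, proline, alanine and cysteine synthesis, 9 amino acid transporter genes and 4 regulators of the stress response. The members were chosen by function and with the log2 fold changes of this same comparison (TL1A against medium, these libraries) already known, so their values are a description and stand as no test. The cells were lineage-negative, CD127-positive and GFP-positive and were sorted from IL23R-GFP/WT mice, in which GFP marks an active IL-23 receptor locus; all groups carry that reporter. Medium and TL1A, a TNF superfamily cytokine, were each represented by 2 RNA-seq libraries, and neither the dose, the duration nor the age of the mice is given in the sources used here. Whether the libraries of a group stem from different mice or cultures is not labelled, so any p-value reflects how far these libraries scatter, and that scatter may be technical.

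Aminoacyl-tRNA synthetases join each amino acid to its tRNA and so supply the ribosome. When uncharged tRNAs accumulate or the endoplasmic reticulum is stressed, kinases phosphorylate the initiation factor eIF2, and the transcription factor ATF4 then raises transcription of synthetase, transporter and amino acid synthesis genes through short C/EBP-ATF response elements. Lymphocytes that are activated and make large amounts of protein are known to take up more neutral amino acids and to use more serine and one-carbon units.

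The promoters of several members carry the letters of that element, and they are shown because the list holds such genes in each of 3 roles. RefSeq promoter windows (assembly GRCm38.p6, 250 bases before to 50 bases after an annotated start) were found for 34 of the 45 members. No window was found for Cars, Hars, Lars, Nars, Rars, Vars, Wars, Cth, Slc1a5, Slc7a5 and Slc38a1. The letters TGATGNAA, searched on both strands, stood in the windows of 8 of the 34 members (23.5%), against 4.51% of 27025 genes with a window. That reference includes genes that were not tested, and the shares among tested genes are given below. The 8 were Aars, Gars, Iars, Tars, Yars, Asns, Slc1a4 and Slc7a11. In the stretches of Asns and Slc7a11 (each the 100 bases before the start), capitals mark these letters on either strand, and Slc7a11, whose product exports glutamate and imports cystine, has them 2 times within the stretch, once on each strand. In the stretch of Aars (160 to 61 bases before the start), capitals also mark a CACGTG box, the sequence bound by Myc and related factors; a second TGATGNAA match of Aars, 10 bases past the start, lies outside it. For the other 5 genes 30 bases around the match are given, each 5′ to 3′ on the strand of its gene.
Asns, chr6:7693210-7693309, minus strand: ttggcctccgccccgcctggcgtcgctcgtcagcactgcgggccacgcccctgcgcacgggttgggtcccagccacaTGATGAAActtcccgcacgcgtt
Slc7a11, chr3:50443614-50443713, minus strand: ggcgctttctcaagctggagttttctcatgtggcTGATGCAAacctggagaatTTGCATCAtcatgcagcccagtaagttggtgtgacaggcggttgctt
Aars, chr8:111033682-111033781, plus strand: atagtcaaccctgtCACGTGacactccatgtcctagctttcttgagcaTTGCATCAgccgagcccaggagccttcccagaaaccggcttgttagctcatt
Gars, chr6:55037960-55037989, plus strand: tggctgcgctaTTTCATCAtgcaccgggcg
Iars, chr13:49682126-49682155, plus strand: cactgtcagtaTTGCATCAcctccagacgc
Tars, chr15:11399655-11399684, minus strand: caggagtcccgTTGCATCAgctggttagct
Yars, chr4:129189895-129189924, plus strand: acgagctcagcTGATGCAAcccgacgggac
Slc1a4, chr11:20332699-20332728, minus strand: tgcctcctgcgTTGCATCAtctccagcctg

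The CACGTG box was found in 6 of the 34 member windows (17.6%), against 8.09% of all genes with a window, and 3 of these genes (Aars, Iars and Tars) also held TGATGNAA. The letters TGACNNNGC of the antioxidant response element stood in 11 of 34 windows (32.4%), against 14.0% of all genes, and Slc7a11 was not among the 11. Among tested genes with a window, CACGTG was held by 12.7% of those higher, 13.8% of those lower and 10.4% of those not called. For TGACNNNGC the shares were 16.0%, 17.2% and 16.4%. These matches describe letters only and say nothing of binding. The 5 member windows with TGATGNAA among the synthetases lay within 13 synthetase windows, while none of the 7 windows of serine, glycine and one-carbon genes held it.

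The libraries held 11495636 and 12222552 assigned reads in medium against 11849977 and 12605164 with TL1A. How well a member was measured depended on the number of its transcript rows, because the table counts reads per RefSeq transcript and reads shared by several transcripts were left out as ambiguous (33.7% to 34.0% of assigned plus ambiguous reads). Of the 28 members with 1 row, 27 had enough reads to be tested, whereas 4 of the 17 members with several rows did. Over all genes these shares were 44.5% for 1 row and 25.0% for several. Farsb, Cbs and Cebpb had 0 reads in every library, which allows at most 0.238 to 0.261 CPM (reads scaled to the total of assigned reads; 3 counts of each total, counting error only) in the counted rows and says nothing of the rest of the transcript.

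**Figure D1:**
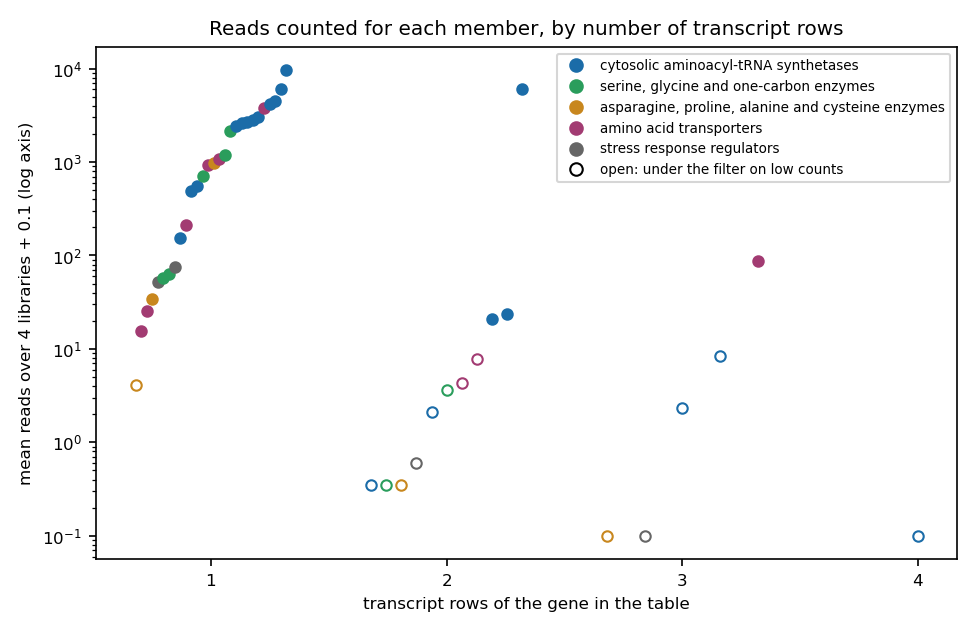
Mean reads of each member over the 4 libraries (vertical axis, log scale after adding 0.1) against the number of its transcript rows in the table (horizontal axis); colour gives the role and open circles mark members under the filter on low counts. Most members with several rows lie under 10 reads, with Dars, Cars, Sars and Slc38a1 as the 4 tested exceptions.

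Among the 31 tested members, 18 were higher and 1 was lower with TL1A in the fit over all genes (edgeR quasi-likelihood test, Benjamini-Hochberg adjusted p under 0.05), and 12 did not pass. Over all 9852 tested genes 20.6% were called higher and 21.7% lower, and since this comparison was known when the list was made, nothing is read from the difference. The median log2 fold change of the tested members was 0.63, and that of all tested genes was -0.03. Of the 27 tested members with 1 row, 17 were higher and 0 lower, with a median of 0.64. Of the 4 with several rows, which are only partly counted, 1 was higher and 1 lower, with a median of -0.52. The libraries of the groups did not overlap for 27 of the 31 members, 21 higher and 6 lower, where 34.7% and 37.6% of all tested genes did so. The calls rest on scaling by trimmed mean of M-values (TMM): with assigned reads as the only scaling, the median of all genes moved to -0.29, the members called were 15 higher and 5 lower, and all genes called were 1310 higher and 3475 lower in place of 2027 and 2141. Changes are therefore relative to the bulk of genes. In bulk samples, fewer cells of a type and less RNA per cell cannot be told apart.

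**Figure D2:**
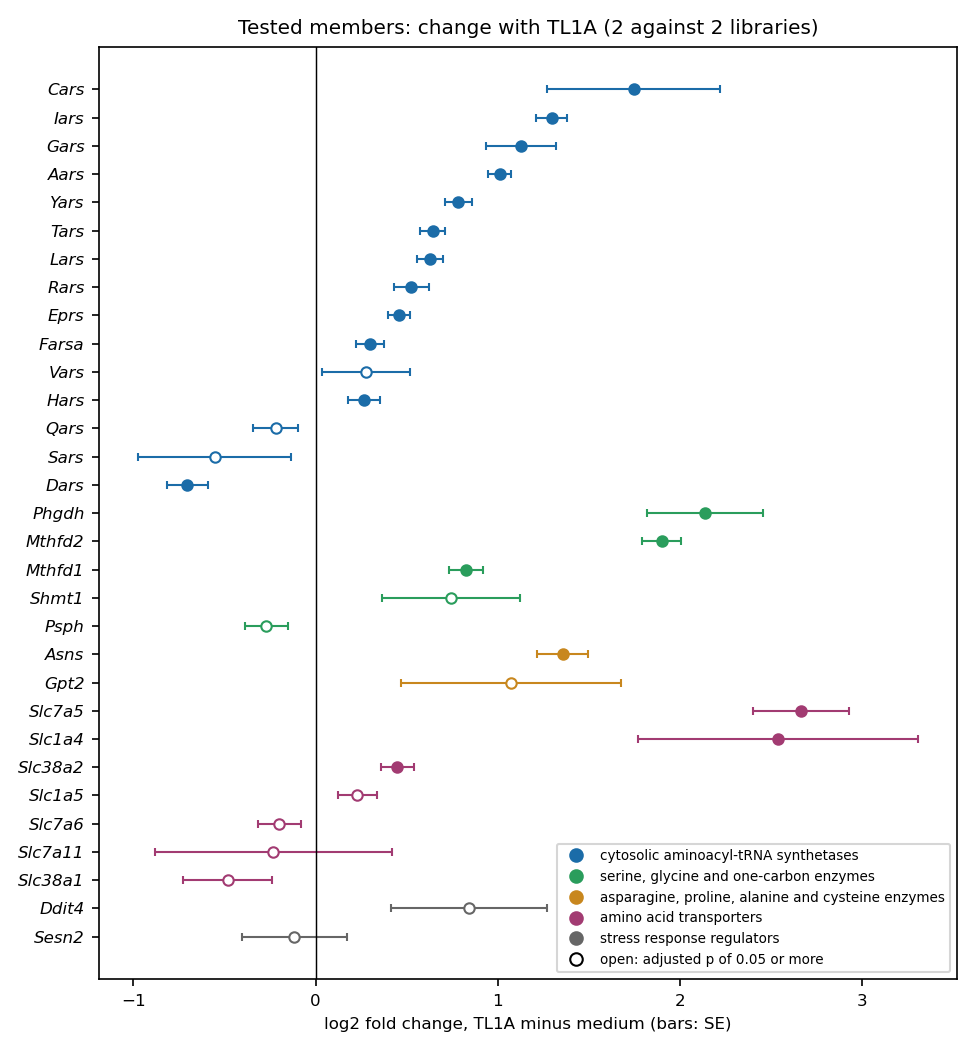
Log2 fold change of each tested member (horizontal axis, TL1A minus medium) with its standard error as bars; colour gives the role and open circles mark members that did not pass. The points run from Dars at -0.70 to Slc7a5 at 2.67.

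**Figure D3:**
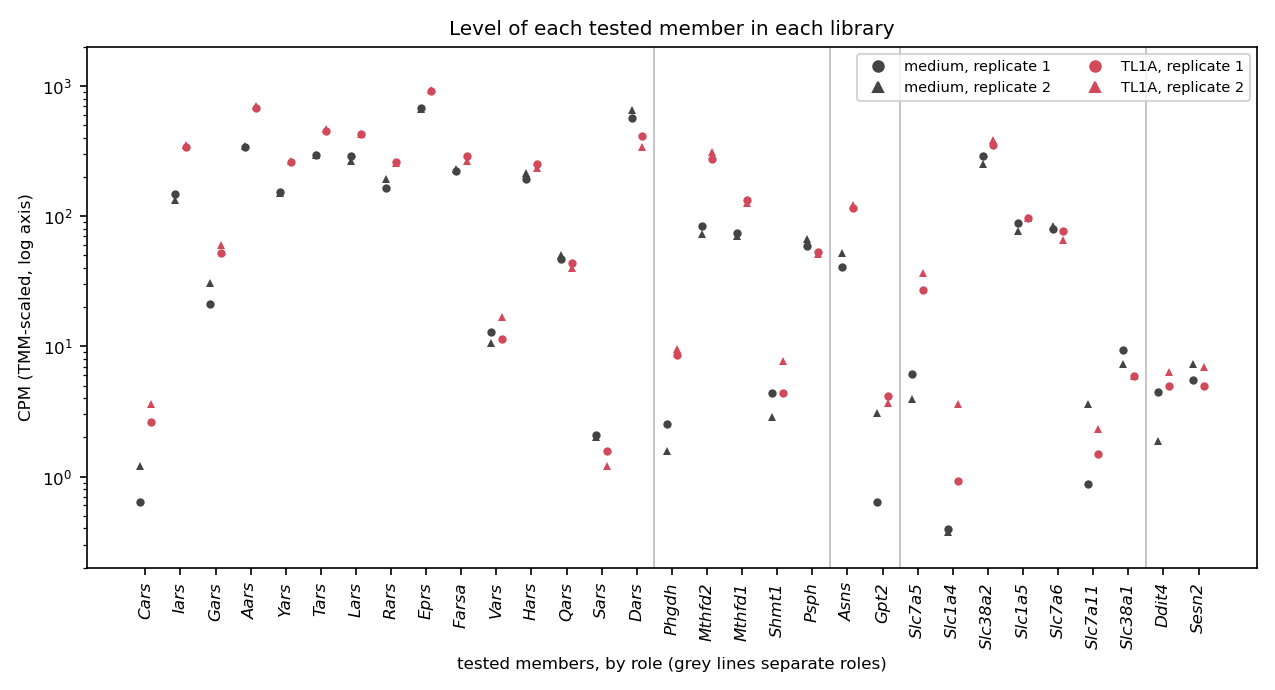
Level of each tested member in each library as TMM-scaled CPM (vertical axis, log scale), with medium in grey and TL1A in red; circles are replicate 1 and triangles replicate 2. The red and grey symbols are separate for 27 of the 31 members, 21 higher and 6 lower with TL1A. Of all tested genes, 34.7% were separate and higher and 37.6% separate and lower.

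The synthetases did not move as a block. Of the 15 tested, 11 were called higher, 1 lower, and 3 did not pass, and their log2 fold changes ran from -0.70 to 1.75. Their summed level was 3139 and 3256 CPM in medium and 4420 and 4376 CPM with TL1A. Iars, which charges isoleucine, had 148.9 and 133.3 CPM in medium and 338.6 and 353.8 CPM with TL1A, on 1780 to 4103 reads. This is a log2 fold change of 1.30 (SE 0.08), and both TL1A libraries lay far above both medium libraries. Aars, the alanine enzyme, had 339.9 and 347.4 CPM in medium and 683.3 and 701.1 CPM with TL1A (log2 fold change of 1.01, SE 0.06). Gars, which charges glycine and also supplies the mitochondrial enzyme, had 21.0 and 30.6 CPM against 52.3 and 60.7 CPM (log2 fold change of 1.13, SE 0.19). Its libraries differed more among themselves than those of Aars, but the groups did not overlap. Cars, the cysteine enzyme, had only 8 and 16 reads in medium against 28 and 42 with TL1A over its rows, a log2 fold change of 1.75 (SE 0.48). Its call was lost without medium replicate 1 (1.37), without TL1A replicate 2 (1.498) and with DESeq2 (1.78).

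Smaller increases were found for the tyrosine enzyme Yars (log2 fold change of 0.78, SE 0.07), the threonine enzyme Tars (0.64, SE 0.07), the leucine enzyme Lars (0.63, SE 0.07) and the arginine enzyme Rars (0.53, SE 0.09). Eprs, a fused enzyme for glutamate and proline, had 683.4 and 672.7 CPM in medium and 926 and 937.8 CPM with TL1A (0.46, SE 0.06). Farsa, the catalytic subunit of the phenylalanine enzyme, and the histidine enzyme Hars were higher by only 0.30 (SE 0.08) and 0.27 (SE 0.09) on the log2 scale. Both calls depended on settings: with assigned reads as the only scaling the values were 0.04 and 0.01. The Farsa call was also lost without TL1A replicate 1 (0.25), and the Hars call when medium replicate 1 (0.18) or either TL1A library (0.22 and 0.32) was left out. With the replicate number as a block neither passed (0.30 and 0.27). Farsb, the partner subunit of Farsa, had no counted read.

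Dars, the aspartate enzyme, went the other way, although reads shared by its 2 rows were left out and the value need not hold for the whole gene. It had 565.8 and 657.6 CPM in medium and 412 and 338.8 CPM with TL1A, a log2 fold change of -0.70 (SE 0.11), and kept its call under every alternative run. Nearly all of its reads lay in 1 of 2 rows, NM_177445, with 7097 and 8777 reads in medium against 4427 and 3928 with TL1A. The glutamine enzyme Qars had 47.2 and 50.1 CPM in medium and 43.7 and 39.9 CPM with TL1A (log2 fold change of -0.22, SE 0.12), and it did not pass. The serine enzyme Sars had 26 and 27 reads against 17 and 14 in the rows counted (-0.55, SE 0.42), and the valine enzyme Vars had 161 and 141 against 122 and 196 (0.28, SE 0.24), so neither was distinguished from the spread. Kars (lysine) had 12, 10, 7 and 4 reads, Mars (methionine) 3, 1, 2 and 2, Wars (tryptophan) 2, 2, 0 and 5, and Nars (asparagine) a single read with TL1A; these 4 genes all have several rows and were not tested.

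Among genes of serine, glycine and one-carbon metabolism the mitochondrial folate enzyme gene Mthfd2 and the cytosolic Mthfd1 were higher. Mthfd2, the mitochondrial methylene-tetrahydrofolate dehydrogenase, had 84.2 and 73.5 CPM in medium and 275.6 and 312.5 CPM with TL1A, or 1057 and 982 against 2963 and 3625 reads. Its log2 fold change was 1.90 (SE 0.11), a 3.73-fold difference, and the groups lay far apart. Mthfd1, the cytosolic trifunctional enzyme, had 74.8 and 71.2 CPM against 132.4 and 126.2 CPM (log2 fold change of 0.83, SE 0.09). Phgdh, the first enzyme of serine synthesis from glycolysis, had only 32 and 21 reads in medium against 93 and 110 with TL1A (log2 fold change of 2.14, SE 0.32).

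The later steps of serine synthesis did not pass or were not tested. Psph, the phosphatase that releases serine, had 59.4 and 66.7 CPM in medium and 53.6 and 51 CPM with TL1A, lower in both but not passing (log2 fold change of -0.27, SE 0.12). It passed with assigned reads as the only scaling (-0.53). Psat1, the aminotransferase between Phgdh and Psph, had 6, 2, 2 and 4 reads and was not tested. Shmt1, the cytosolic enzyme that turns serine into glycine, had 55 and 38 reads against 47 and 89, which overlap (log2 fold change of 0.74, SE 0.38). Its mitochondrial counterpart Shmt2 had a single read in all and was not measured here. The summed level of the 7 genes was 225.4 and 215.7 CPM in medium and 474.5 and 506.8 CPM with TL1A, of which Mthfd2 made up the largest part.

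Asns, which makes asparagine from aspartate and is a standard target of ATF4, had 510 and 701 reads in medium against 1245 and 1422 with TL1A. These were 40.6 and 52.5 CPM against 115.8 and 122.6 CPM, a log2 fold change of 1.36 (SE 0.14), and the groups did not overlap. Gpt2, the mitochondrial alanine aminotransferase, had 8 and 41 reads in medium against 45 and 43 with TL1A (log2 fold change of 1.07, SE 0.61). The value was 0.35 without medium replicate 1, and 2.64, passing, without medium replicate 2. Cth, which makes cysteine from cystathionine, had 0 and 1 reads in medium against 11 and 4 with TL1A, too few to be tested. Cbs, the step before it, had no read, Aldh18a1, the first enzyme of proline synthesis, had 1 read, and Pycr1 was matched to no row and is not analysed here.

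Among the transporters the largest increase was that of Slc7a5, and the other values ran from -0.48 to 2.54 on the log2 scale. Slc7a5, the light chain of the large neutral amino acid exchanger LAT1, had 77 and 53 reads in medium against 291 and 428 with TL1A. The levels were 6.13 and 3.97 CPM against 27.1 and 36.9 CPM, a log2 fold change of 2.67 (SE 0.26) or 6.34-fold, the largest among the tested members. Slc3a2, the heavy chain with which Slc7a5 pairs, had 6, 4, 4 and 3 reads over 2 rows and was not measured. Slc1a4, a neutral amino acid carrier, had 5 and 5 reads in medium against 10 and 42 with TL1A (log2 fold change of 2.54, SE 0.77). That value rested on TL1A replicate 2: without it the log2 fold change was 1.26 and did not pass, while the call was also lost, at values of similar size, without medium replicate 1 (2.58) or 2 (2.525) and with DESeq2 (2.59). Slc38a2, the sodium-coupled transporter SNAT2, had 290.2 and 252.7 CPM against 354 and 387.3 CPM (log2 fold change of 0.45, SE 0.09), which became 0.19 and did not pass with assigned reads as the only scaling.

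Slc1a5, the glutamine transporter ASCT2, had 88.6 and 77.6 CPM in medium and 97.8 and 97.1 CPM with TL1A (log2 fold change of 0.23, SE 0.11). It did not pass, and its sign turned with assigned reads as the only scaling (-0.03). Slc7a6, the light chain of an exchanger of basic and neutral amino acids, had 79.3 and 84.6 CPM against 76.9 and 66 CPM (-0.20, SE 0.12). Slc38a1, another glutamine transporter, had 117 and 98 reads in medium against 64 and 69 with TL1A over 3 rows (-0.48, SE 0.24) and did not pass. Its row with most reads, NM_001166456, had 55 and 54 against 44 and 48 reads, and fitted on its own gave a log2 fold change of -0.03. Slc7a11 had 11 and 48 reads in medium against 16 and 27 with TL1A, and the libraries overlapped. Slc7a1, the main carrier of arginine and lysine, had 5 and 4 reads in medium against 14 and 8 with TL1A and was not tested. In this role 3 of 7 tested members were called higher, none lower, and 4 did not pass.

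Of the 4 stress response regulators, 2 were tested and neither passed. Sesn2, a leucine-binding inhibitor of mTORC1, had 69 and 98 reads in medium against 53 and 80 with TL1A, which overlap (log2 fold change of -0.12, SE 0.29). Ddit4, which encodes the mTORC1 inhibitor REDD1, had 56 and 25 reads against 53 and 74 (0.84, SE 0.43), and it passed only when medium replicate 1 was left out (1.58). Atf5, a factor translated under eIF2 phosphorylation, had 1 read in each TL1A library, and Cebpb, a partner of ATF4 at response elements, had none in any library; each has several rows. The levels of Atf5 and Cebpb could not be judged from these rows.

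Levels can be compared between members only per length, and this was done for single-row members with the length of the GENCODE transcript paired with the accession. In CPM per kilobase, Eprs was the most abundant of them in both groups, with 138 ± 1.55 in medium and 189.8 ± 1.7 with TL1A (SD, n = 2). With TL1A it was followed by Farsa (152.1 ± 8.32) and Mthfd2 (140.9 ± 12.5), whose ranges meet, and then by Rars (122.9 ± 2.47), Hars (122.9 ± 5.91) and Aars (120.3 ± 2.19), which did not differ beyond their spread. Mthfd2 stood at rank 10 of the 28 single-row members in medium (37.8 ± 3.6) and at rank 3 with TL1A. Slc7a5 moved from 1.43 ± 0.434 to 9.09 ± 1.98 and stayed under the glutamine transporter Slc1a5, which had 30 ± 2.82 and 35.2 ± 0.194.

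**Figure D4:**
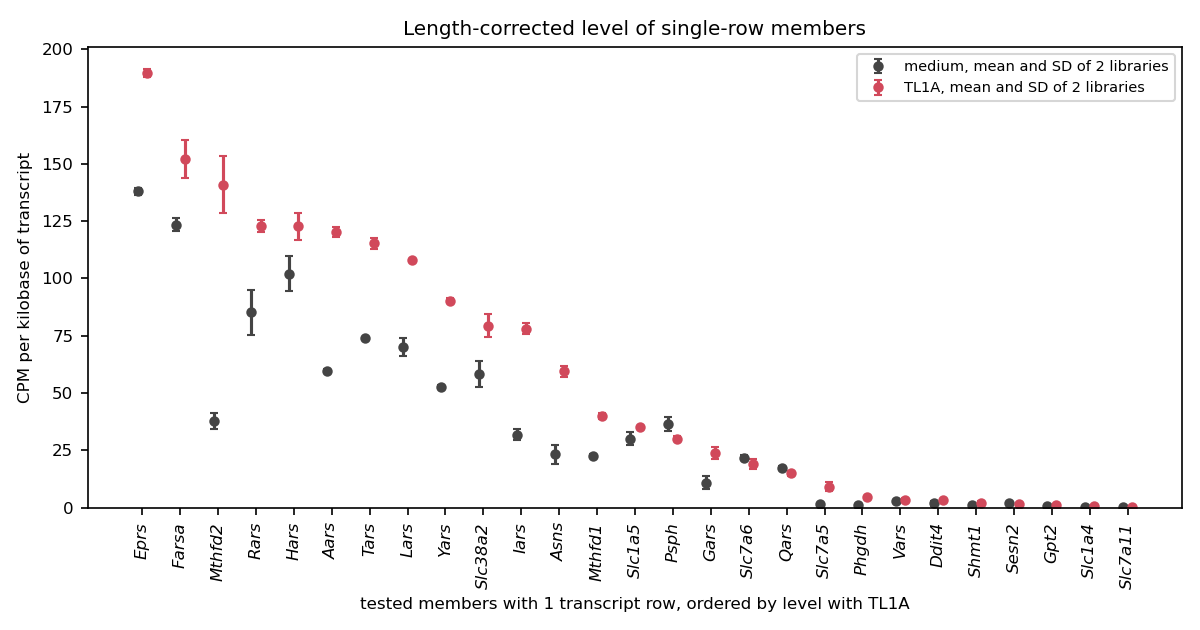
Length-corrected level of each tested single-row member (vertical axis, CPM per kilobase of transcript), as mean and SD of 2 libraries for medium (grey) and TL1A (red), ordered by the level with TL1A. Eprs leads in both groups, and Mthfd2 shows the widest gap between grey and red.

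The promoter letters can be set beside these values. Of the 8 members with TGATGNAA, Aars, Gars, Iars, Tars, Yars, Asns and Slc1a4 were called higher and Slc7a11 did not pass. That makes 7 of the 13 called-higher members with a window, against 1 of the 9 tested members with a window that did not pass. Mthfd2 and Phgdh were higher without the letters in their windows. Over all tested genes with a window, the letters were held by 3.12% of those called higher, 2.84% of those called lower and 2.22% of those not called. None of the 11 untested members with a window held the letters. No test was made of these shares. The members were chosen by function with these fold changes already known, so nothing is read from the member counts.

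Genes that neighbour the members in function, and are not among them, were taken from lists by function and read in the same fit. Their counts stand beside 20.6% higher and 21.7% lower over all tested genes. Of 15 tested mitochondrial synthetases, 1 was higher, none lower and 14 did not pass, with a median log2 fold change of 0.04. The 1 called, Wars2, rose from 30.9 ± 0.41 to 44.2 ± 5.28 CPM (log2 fold change of 0.52 with SE 0.14, edgeR adjusted p = 0.0216), and the call was lost without medium replicate 1 (0.49) or TL1A replicate 1 (0.40) and with assigned reads as the only scaling (0.26). The list counted 2 higher and 1 lower without medium replicate 2, 1 of each without TL1A replicate 2, and 0 higher and 3 lower with assigned reads as the only scaling. Next by p were Fars2 (-0.31, SE 0.14, adjusted p = 0.113) and Aars2 (0.60, SE 0.31, adjusted p = 0.168). A test of the difference between cytosolic and mitochondrial enzymes was not made.

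Among scaffold and tRNA delivery genes, 2 of 9 tested rose, 1 fell and 6 did not pass; without medium replicate 2 the number higher was 4, and with assigned reads as the only scaling 1 rose and 2 fell. Eef1e1, which encodes the scaffold protein AIMP3 of the multisynthetase complex, rose from 68.7 ± 8 to 142.5 ± 1.75 CPM (log2 fold change of 1.05 with SE 0.11, edgeR adjusted p = 0.000235). Aimp1, another scaffold gene, rose by 0.47 (SE 0.09, adjusted p = 0.00484), and by 0.21 without passing when assigned reads were the only scaling. Dtd1, which removes D-amino acids wrongly joined to tRNA, fell from 77.6 ± 1.33 to 17.7 ± 0.636 CPM (log2 fold change of -2.14, SE 0.12, adjusted p = 1.25e-05). It had 963 and 1049 reads in medium against 185 and 210 with TL1A.

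Of 30 tested genes of tRNA maturation and modification, 5 rose, 1 fell and 24 did not pass; the list median was 0.13. Mettl1, the catalytic subunit of the tRNA 7-methylguanosine methyltransferase, rose from 248 and 329 reads to 1419 and 1469, or 22.2 ± 3.46 to 129.3 ± 3.77 CPM (log2 fold change of 2.54 with SE 0.13, edgeR adjusted p = 7.8e-06). The tRNA splicing endonuclease gene Tsen54 rose by 0.99 (SE 0.18, adjusted p = 0.00419) and the RNA polymerase III subunit gene Polr3g by 0.92 (SE 0.18, adjusted p = 0.00529). The 1 gene that fell was Trmt10c (-0.53, SE 0.14), named after its value was seen. Its call was lost without medium replicate 1 and without TL1A replicate 1. Counts of this list were 3 higher and 4 lower with assigned reads as the only scaling, and 3 higher with the replicate number as a block.

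Of 16 tested genes of the wider folate cycle, 2 passed as higher and 1 as lower, leaving 13 that did not pass. The groups of libraries did not overlap for 4 higher and 6 lower, where 34.7% and 37.6% of all tested genes did so. Gldc, the glycine-cleaving decarboxylase that feeds mitochondrial one-carbon units, rose from 153 and 168 reads to 655 and 658 (log2 fold change of 2.25 with SE 0.14, edgeR adjusted p = 1.66e-05). Mat2a, which makes the methyl donor S-adenosylmethionine, rose from 378.2 ± 4.96 to 535.2 ± 20 CPM (0.50, SE 0.07, adjusted p = 0.000844). Aldh1l1, which oxidises formyl-tetrahydrofolate in the cytosol, fell from 15.4 ± 0.318 to 6.25 ± 2.01 CPM (-1.29, SE 0.25, adjusted p = 0.00553). The number lower was 3 without medium replicate 2 or without the filter on low counts, 2 without TL1A replicate 2 or with DESeq2, and 4 with replicate 1 of one group blocked with replicate 2 of the other, or with assigned reads as the only scaling.

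Enzymes of glutamine, glutamate, aspartate and arginine were higher for 8 of 19 tested, lower for 3, and 8 did not pass (5 higher without TL1A replicate 1, and 5 higher and 5 lower with assigned reads as the only scaling). Oat, which links ornithine to glutamate and proline, rose from 171.2 ± 16.7 to 393.3 ± 19 CPM (log2 fold change of 1.20 with SE 0.09, edgeR adjusted p = 4.82e-05). The spermine synthase gene Sms rose by 1.25 (SE 0.12, adjusted p = 0.000138), and the arginase gene Arg1 fell from 317 and 399 reads to 95 and 117 (-1.54, SE 0.18, adjusted p = 0.000442). Amino acid and related carriers outside the members were called higher for 5 of 19 tested and lower for 5. Those lower, named after their values were seen, were Slc38a7 (log2 fold change of -1.28), Slc38a6 (-1.13), the mitochondrial aspartate-glutamate carrier gene Slc25a12 (-0.60), the lysosomal arginine sensor gene Slc38a9 (-0.51) and the cystine exporter gene Ctns (-0.48). Slc15a3, a lysosomal carrier of histidine and peptides, rose from 124.9 ± 0.221 to 571.2 ± 9.92 CPM (2.19, SE 0.07, adjusted p = 7.16e-07), the taurine transporter gene Slc6a6 rose from 244.4 ± 15 to 500.3 ± 13.5 CPM (1.03, SE 0.07, adjusted p = 3.89e-05), and Slc43a3 rose from 55 and 34 reads to 356 and 386 (3.26, SE 0.25, adjusted p = 5.4e-05).

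The list of the integrated stress response, the pathway that leads through eIF2 to ATF4, had 11 of 21 tested genes higher, 1 lower and 9 not passing, with a median log2 fold change of 0.43. The number higher was 7 without TL1A replicate 1, the number lower was 0 without medium replicate 1, and with assigned reads as the only scaling the counts were 6 higher and 2 lower. Atf4 itself had 5 and 4 reads in medium against 9 and 6 with TL1A over 2 rows, too few to be tested. Nupr1, a small stress-induced nuclear protein gene, rose from 1698 and 1975 reads to 10570 and 10875, or 141.6 ± 8.99 to 960.4 ± 32.2 CPM (log2 fold change of 2.76 with SE 0.08, edgeR adjusted p = 4.74e-07). Eif2s2 and Eif2s1, which encode the beta and alpha subunits of eIF2, rose by 0.93 (SE 0.10, adjusted p = 0.000304) and 0.58 (SE 0.07, adjusted p = 0.00062). The kinase inhibitor gene Trib3, an ATF4 target, rose from 321 and 269 reads to 684 and 594 (1.33, SE 0.17, adjusted p = 0.00079), whereas Ddit3, which encodes the ATF4 target CHOP, had 17 and 25 reads against 20 and 29 (0.43, SE 0.43, adjusted p = 0.453); Trib3 and Ddit3 were named after their values were seen.

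**Figure D5:**
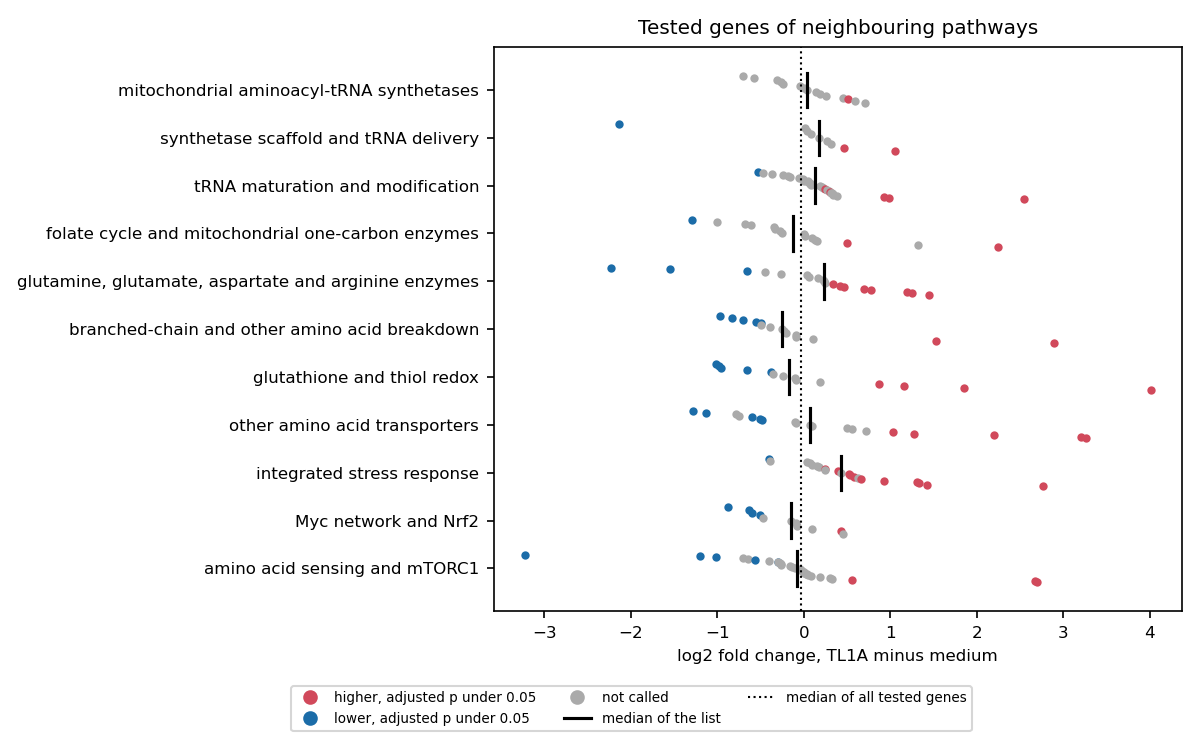
Log2 fold change (horizontal axis, TL1A minus medium) of each tested gene of 11 lists of neighbouring pathways; red and blue points passed as higher and lower, grey points did not pass, bars mark list medians and the dotted line the median of all tested genes. The median of the integrated stress response list, 0.43, lies farthest to the right.

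Defining ILC3 genes were present in all libraries, although Kit had at most 1 read. Several moved with the groups: 4 of 13 tested were higher and 7 lower. Il22 (log2 fold change of 7.19), Thy1 (2.28), Lta (1.89) and Id2 (0.49) rose, and those that fell included Il7r (-1.59) and Il23r (-0.63). The summed level of 14 ILC3 markers was 10112 and 10621 CPM in medium and 14546 and 14643 CPM with TL1A. Of this, Il22 made up 56.5 and 38.9 CPM in medium and 6834 and 7115 CPM with TL1A. Markers of several other cell types also differed between the groups, though not all in 1 direction within a list. Among 6 B cell markers, Cd79b rose by 1.35 on the log2 scale and Cr2 fell by 1.64, with Ms4a1 and Pax5 among those at 0. Their summed level was 41.2 and 50.3 CPM in medium and 115.2 and 98.8 CPM with TL1A, nearly all from Cd79b. That of 10 myeloid markers was 90.3 and 103.3 CPM against 43.6 and 52.7 CPM, with Itgam and Cd163 at 0; Cd14 fell from 47.5 to 5.22 CPM and Mpeg1 fell by 1.90 on the log2 scale, Adgre1 rose by 0.91, and Csf1r (-0.16) and Cd68 (0.24) did not pass. The sum of 7 ILC2 markers was 64.2 and 74.6 CPM against 163.7 and 150.1 CPM, where Klrg1 rose from 27.6 to 134.7 CPM while Il1rl1 (-2.37) and Il17rb (-1.51) fell. That of 7 ILC1 and NK cell markers was 14.5 and 9.87 CPM against 27.5 and 21 CPM, with Eomes at 0. In it Gzmb rose by 4.34, Gzma (-2.32) and Klrk1 (-2.56) fell, and Prf1 (2.03) did not pass. T cell markers summed to 4.06 and 9.8 CPM against 5.67 and 6.29 CPM, which overlap. Among them Cd28 fell by 3.03 on the log2 scale (21 and 67 reads against 5 and 4), while Cd3e (1.39) and Cd3g (0.28) did not pass. Epithelial or stromal markers summed to 13.7 and 7.55 CPM against 4.83 and 3.88 CPM. Of these Krt18 fell by 4.25, and Pecam1 (-0.60) and Vil1 (-0.13) did not pass. Red cell markers summed to at most 0.159 CPM. Kit, Itgam, Cd163 and Eomes have 2 rows each, and reads shared by the rows of a gene were left out. Their levels could therefore not be judged, and their low counts do not show absence. The part of other cell types in the values above was not tested.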

How the data were processed

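RNA-seq counts of 4 libraries were used, 2 for medium and 2 for TL1A. Libraries were prepared with Clontech's SMARTer low-input cDNA kit, per the labels' protocols. Per the submitters' processing notes, CASAVA, STAR and HTSeq and the build mm9 were used. Versions, strand setting and annotation release were not given in the sources used here. Each deposited value is an unnormalized count of reads for 1 RefSeq transcript, as the whole numbers and row names of the authors' table show. Of 33535 rows, 33150 matched a gene symbol of RefSeq assembly GRCm38.p6, and the counts of a gene's rows were summed. Each unmatched row was kept and counted as a gene of its own. The 5 summary rows were left out. Ambiguous, no feature and not unique counts made up 69.9% to 71.3% of assigned reads plus those classes. Genes that share sequence with copies lose reads to the not unique class, and antisense overlaps cannot be told apart.

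Tests used edgeR 4.0.16 under R 4.3.3 (minimum count of 10 in filterByExpr, TMM factors 1.09 and 1.09 for medium, 0.908 and 0.921 for TL1A, glmQLFTest, two-sided, Benjamini-Hochberg adjustment over 9852 genes). With 2 libraries a group, the smallest p of an exact permutation test is 0.333. The standard error is the log2 fold change divided by the square root of F. Members and lists were chosen with earlier results of these data known. Full values are given for up to 3 increases and 2 decreases per role among members with a mean of at least 20 reads, for members whose call changed and for those not tested, and for up to 3 genes per other list with the smallest p, besides Atf4 and Myc. Levels in CPM include the TMM factors. The fit was tested on simulated data, where 38% of changes of 0.5 on the log2 scale were recovered and 78% of changes of 1. Of changes of 2 and 3, 95.7% and 97.9% were recovered, and 2.6% of the calls were false. Not passing therefore does not show that a gene was unchanged. The simulation changed 50, 50, 47 and 48 of 9538 genes by 0.5, 1, 2 and 3, some up and some down. In the data 42.3% of tested genes were called, so the simulated shares need not hold there. Alternatives were DESeq2 1.42.0, other scalings, no filter, a replicate block, single rows and leaving out each library.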

Additional observations from a re-analysis of the deposited data

How the results depend on the processing

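With assigned reads as the only scaling, an alternative chosen after seeing the data, genes called over the whole table were 1310 higher and 3475 lower, members lower were 5 in place of 1 (Dars joined by Qars, Psph, Slc7a6 and Slc38a1), and genes of the other lists lower were 64 in place of 31; Slc1a5 turned to -0.028. Under every other setting the counts for all genes, the members and the other lists stayed within 1.5 times, with 15 to 18 members higher and 1 lower. Of the 18 members called higher, 13 kept their call under every alternative run, as did Dars. Signs turned for members that had not passed: Vars without TL1A replicate 2 (range over the libraries left out -0.0326 to 0.5392), Slc7a11 without medium replicate 2 (1.147) or TL1A replicate 1 (0.0563; range -0.9114 to 1.147), and Sesn2 without medium replicate 2 (0.1373) or TL1A replicate 1 (0.1094; range -0.372 to 0.1373).

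The replicate numbers of the titles are not said to pair the libraries. The differences between replicates of both groups correlated at -0.105 across genes. With the replicate number as a block, 1736 genes were higher and 1806 lower, and 16 members higher and 1 lower; with the crossed pairing, added after seeing the data, 2295 and 2439 genes were called, and 18 members higher and 1 lower. Depth was not varied; 11 members with reads fell under the filter on low counts and were not tested.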

Other observations

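Genes of amino acid breakdown, thiol redox and nutrient sensing were read in the same fit, as lists by function that hold no member. In the list of branched-chain and other amino acid breakdown, 5 of 15 tested genes fell, 2 rose and 8 did not pass (11 lower with assigned reads as the only scaling, 1 higher without medium replicate 1 or TL1A replicate 2). Over all tested genes 21.7% fell and 20.6% rose. The list consists mostly of enzymes of branched-chain and propionate breakdown. Those that fell were Ivd, Mccc2, Bckdha, Bckdhb and Hibch, and those that did not pass were Bckdk, Dbt, Mccc1, Acadsb, Hibadh, Pcca, Pccb and Mut, with log2 fold changes from -0.49 (Bckdk) to 0.11 (Acadsb); all but Ivd and Mccc2 were named after their values were seen. Ivd, which acts on leucine, fell from 275.7 ± 7 to 141.2 ± 0.86 CPM (log2 fold change of -0.96 with SE 0.07, edgeR adjusted p = 5.44e-05), and Mccc2, a later step, fell by 0.70 (SE 0.13, adjusted p = 0.00389). Fah, the last enzyme of tyrosine breakdown, rose from 392 and 320 reads to 911 and 862 (1.53, SE 0.16, adjusted p = 0.000243).

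In the list of glutathione and thiol redox genes, 4 of 14 tested rose, 5 fell and 5 did not pass (3 lower without TL1A replicate 2, 8 lower with assigned reads as the only scaling). Chac1, an ATF4 target that breaks down glutathione, had 10 and 4 reads in medium against 77 and 123 with TL1A (log2 fold change of 4.01 with SE 0.47, edgeR adjusted p = 0.000439). The thioredoxin gene Txn1 rose from 305.5 ± 21 to 683.9 ± 6.34 CPM (1.16, SE 0.07, adjusted p = 1.92e-05). Hmox1, which encodes haem oxygenase, fell from 104.8 ± 10.2 to 51.9 ± 2.6 CPM (-1.01, SE 0.12, adjusted p = 0.00039). In the list of the Myc network and Nrf2, 1 of 11 tested rose, 4 fell and 6 did not pass (2 lower without TL1A replicate 1, 0 higher and 5 lower with assigned reads as the only scaling). Nfe2l2, the gene of the redox regulator NRF2, fell from 428.8 ± 12.8 to 282.9 ± 9.72 CPM (-0.60, SE 0.07, adjusted p = 0.00044), its partner gene Mafk fell by 0.88 (SE 0.21, adjusted p = 0.0122), and the glucose sensor gene Mlxip rose by 0.44 (SE 0.08, adjusted p = 0.00331; 0.18 and not passing with assigned reads as the only scaling). Myc, with 4 rows, had 0 reads in every library and could not be judged.

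Among 30 tested genes of amino acid sensing and mTORC1, 3 rose, 5 fell and 22 did not pass; the number lower was 3 without medium replicate 2, without TL1A replicate 2, with DESeq2 or with the replicate number as a block, 8 with replicate 1 of one group blocked with replicate 2 of the other, and 13 with assigned reads as the only scaling. Rptor, which encodes the mTORC1 scaffold Raptor, rose from 810 and 892 reads to 4555 and 4805, or 65.7 ± 1.63 to 419 ± 6.63 CPM (log2 fold change of 2.67 with SE 0.08, edgeR adjusted p = 4.98e-07). Lamtor4, a subunit of the lysosomal platform that recruits mTORC1, fell by 1.19 (SE 0.11, adjusted p = 0.000148), and Sesn1, a relative of Sesn2, fell by 1.02 (SE 0.16, adjusted p = 0.00191).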
